A study of Homo sapiens with 9 samples.

Results

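The genes described here encode the enzymes that place methyl groups on histone lysines and those that take them off, measured here as poly(A)-selected RNA in Jurkat, a long-established cell line of human T-cell acute lymphoblastic leukaemia. They were chosen by name: every row of the expression table whose symbol begins with KDM, KMT, SETD, SUV39H, SUV420H, PRDM, SMYD, NSD, WHSC1 or EHMT1 followed by its family number or letter, together with DOT1L, ASH1L, SETDB1 and SETDB2. This gave 66 of the 26190 rows with values, and 54 of them passed the filter on low values, among 11737 genes tested. The rule takes in PRDM and SMYD members that are transcription factors or methylate proteins other than histones. It leaves out UTY, and also EZH1, EZH2 and several enzymes with other names, of which those tested on a separate list are given at the end.

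There were 3 groups of 3 libraries each. KO2 and KO1 are lines labelled as EZH2 knockouts and edited with CRISPR/Cas9, and WT is the same leukaemia line with unedited EZH2. Each knockout is 1 line, so what belongs to the loss of EZH2 and what belongs to a line that was derived and grown separately cannot be told apart within a line. Exponentially growing cells in RPMI medium with serum gave the RNA, and no drug treatment is given for these libraries. The series comes from a study of sensitivity to CHK1 inhibition in leukaemia without EZH2. Here the comparisons ask how the RNA of the other lysine methylation enzymes differed in each edited line.

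Lysine methylation of histones works as a reversible code: writers of the SET-domain family and DOT1L add methyl groups, and erasers of the flavin-dependent KDM1 family or the iron- and oxygen-dependent Jumonji family remove them. Methylation of H3K4 and H3K36 marks active genes, while methylation of H3K9 and H3K27 marks silent ones. EZH2 is the catalytic subunit of Polycomb repressive complex 2 (PRC2), which writes H3K27 methylation, and KDM6A and KDM6B are erasers of its product. In T-cell leukaemia, loss-of-function lesions of PRC2 and of KDM6A are both known.

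Levels are FPKM, fragment counts normalized for the length of the transcript and the size of the library. Comparison between genes and between libraries is approximate, and that between libraries depends on the scaling, as given below. Fold changes are differences of mean log2(FPKM + 1), given ± SE, and those of genes at a few FPKM are understated by the added 1. The test was limma's moderated test with Benjamini-Hochberg adjustment over the 11737 genes tested, and a gene is said to rise or fall where its adjusted p is under 0.05. The depth of the libraries in reads is unknown. Per library, FPKM summed to 417737 to 439704, and 11028 to 11415 genes reached 1 FPKM. All 11 T-lymphocyte markers examined averaged at least 1 FPKM in every group, and their summed level, most of it from CD3D, CD3E and LCK, was 1582.6 to 1619.9 in KO2, 1352.0 to 1496.7 in KO1 and 1582.5 to 1692.8 in WT. Single markers shifted within it: CD2 had 3.542 to 5.107 FPKM in KO2, 87.2 to 94.35 in KO1 and 35.01 to 36.56 in WT, and CD28 had 13.23 to 14.07 in KO2, 7.474 to 8.131 in KO1 and 34.84 to 35.78 in WT. Their part in the results was not tested. Among B-cell markers, PAX5 was listed at 0 in all libraries, MS4A1, CD22 and CD79B stayed under 0.25 FPKM, and CD79A had 19.09 to 22.08 FPKM in KO2, 48.54 to 58.22 in KO1 and 24.53 to 28.99 in WT. The summed level of 6 myeloid markers was at most 0.54 in KO2, 0.68 in KO1 and 0.09 in WT.

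EZH2 itself, which is no member, had 87.93, 89.87 and 90.65 FPKM in KO2, 107.6, 106.9 and 103 in KO1, and 74.45, 77.58 and 79.48 in WT. Its RNA was higher in both edited lines, by 0.21 ± 0.04 in KO2 (limma adjusted p = 5.41e-04) and 0.45 ± 0.04 in KO1 (limma adjusted p = 1.64e-06). An edit that shifts the reading frame need not remove the transcript, so the RNA level does not check the loss of protein.

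Among the 54 tested members, the largest changes were in demethylase genes. The promoters of KDM3A, KDM4B and KDM7A, the 3 members that were lower by at least 1 on the log2 scale in both edited lines, are shown as the 250 bases before the annotated start, 5′ to 3′ on the gene's strand, from RefSeq on GRCh38.p14. Capitals mark ACGTG, 1 form of the core of the hypoxia response element, or its reverse complement CACGT, and CCAAT, which is bound by NF-Y. The core can also read GCGTG, a form that was neither searched nor marked. CCAAT was chosen after the windows had been read. The KDM3A window is chr2:86441121-86441370 on the plus strand, that of KDM4B is chr19:4968863-4969112 on the plus strand, and that of KDM7A is chr7:140176984-140177233 on the minus strand.

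KDM3A: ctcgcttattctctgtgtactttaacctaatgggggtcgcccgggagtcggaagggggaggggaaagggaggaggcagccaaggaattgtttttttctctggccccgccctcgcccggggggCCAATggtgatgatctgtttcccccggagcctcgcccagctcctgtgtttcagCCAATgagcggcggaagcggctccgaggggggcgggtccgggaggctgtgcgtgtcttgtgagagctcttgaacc

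KDM4B: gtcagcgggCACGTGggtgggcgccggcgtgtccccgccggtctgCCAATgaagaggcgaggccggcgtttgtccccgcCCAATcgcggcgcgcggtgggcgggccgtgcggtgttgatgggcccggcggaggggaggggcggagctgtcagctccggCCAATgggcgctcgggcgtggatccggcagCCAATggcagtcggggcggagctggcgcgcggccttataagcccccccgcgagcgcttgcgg

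KDM7A: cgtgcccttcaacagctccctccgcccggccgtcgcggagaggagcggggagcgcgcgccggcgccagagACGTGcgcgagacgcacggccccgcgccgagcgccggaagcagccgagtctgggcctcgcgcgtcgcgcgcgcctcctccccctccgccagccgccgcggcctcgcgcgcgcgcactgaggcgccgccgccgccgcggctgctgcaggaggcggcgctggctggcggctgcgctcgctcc

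The 3 windows differed in the letters searched. The KDM3A window held 2 CCAAT and 0 ACGTG, the KDM7A window held 1 ACGTG and 0 CCAAT, and the KDM4B window held 4 CCAAT and a CACGTG, in which ACGTG reads on both strands. Of 35116 promoter windows of this length, 18.5% held ACGTG on either strand, 6.34% held CACGTG and 32% held CCAAT. Windows were found for 58 members, and 24.1% of them held ACGTG, 15.5% CACGTG and 36.2% CCAAT. Their median GC content was 66.2%, against 58% over all windows. Of the 20 matched members lower in both lines, 5 held ACGTG and 10 held CCAAT, and of the 12 higher in both lines, 1 and 2 did. CCAAT also stood in 4 of the 7 matched members not tested and in 5 of the 19 others. The CCAAT counts are no independent comparison, because that motif was chosen after reading windows that include KDM3A and KDM4B, both among the 20. A match of these letters is a description of the window, and binding was not measured.

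Across the 54 tested members, more genes fell than rose in each edited line. In KO2 against WT, 15 rose and 22 fell, while 38.1% of all genes tested rose and 26.6% fell, 64.7% in either direction. The share of higher calls among all KO2 calls was 58.9%, and it became 50.9% under quantile normalization, where 10 members rose and 27 fell, and 52.9% with median centring. In KO1 against WT, 14 rose and 27 fell, against 35.6% rising, 31.9% falling and 67.5% in either direction over all genes. The median log2 fold change of the tested members was -0.11 in KO2 and -0.20 in KO1, beside 0.06 in KO2 and 0.02 in KO1 over all genes tested. In RNA from whole cultures, less RNA per cell and fewer cells with the RNA cannot be told apart. The edited lines share the same WT libraries, so their counts are not independent. A change of at least 1 on the log2 scale was reached by 4 falling and 0 rising members in each line, and all of these were demethylases. Over all genes tested, 2.16% fell and 3.89% rose by that much in KO2, and 2.85% fell and 5.56% rose in KO1.

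**Figure D1:**
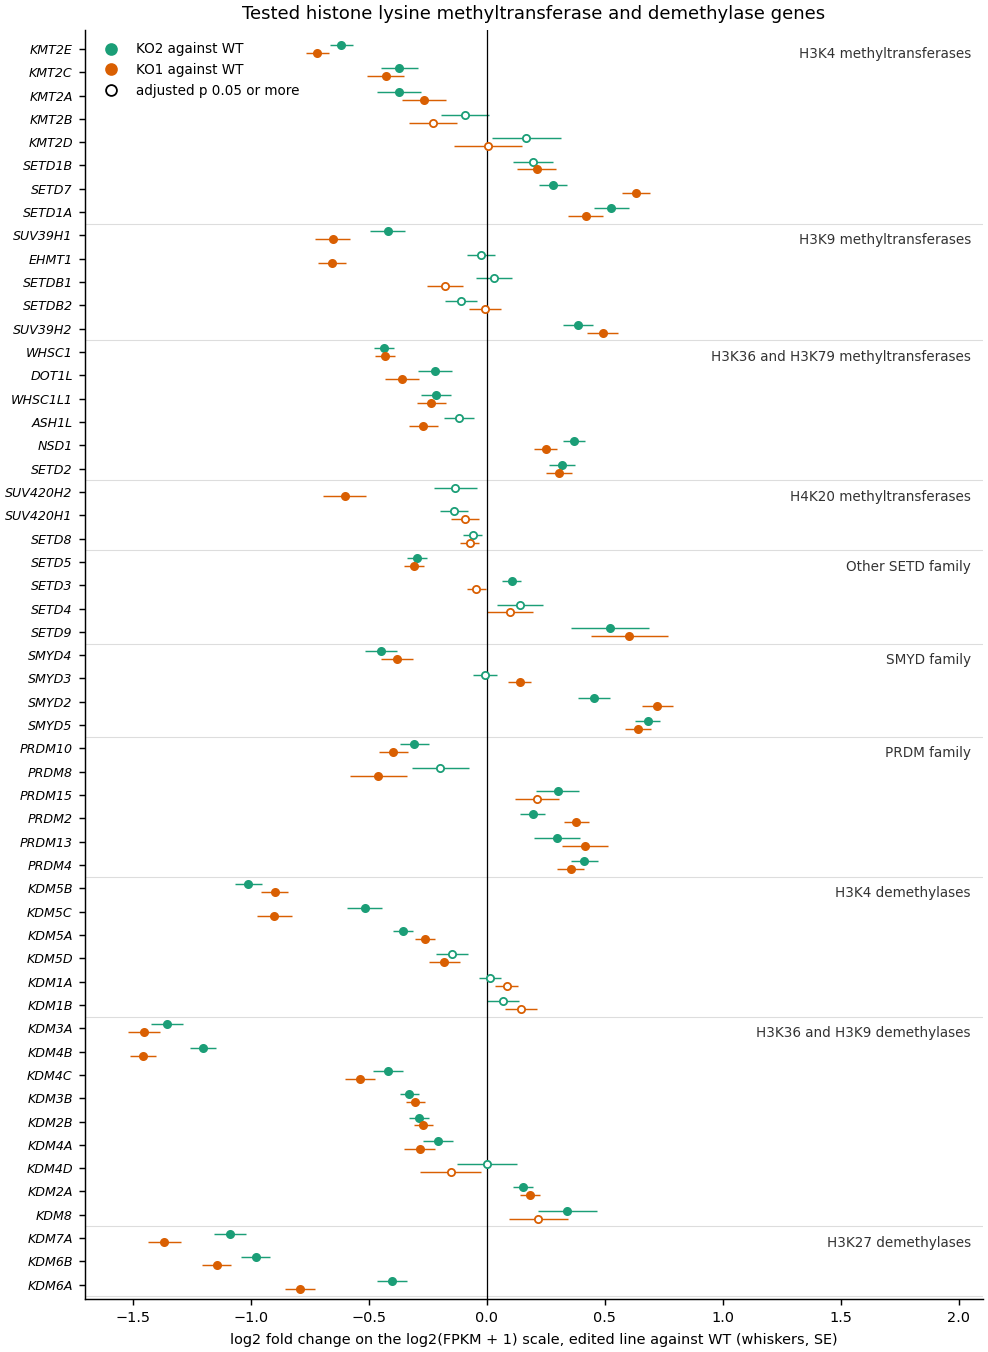
Log2 fold change on the log2(FPKM + 1) scale (x axis) of the 54 tested members, grouped by role, for KO2 against WT and KO1 against WT; whiskers are SE and open points have an adjusted p of 0.05 or more. The longest shifts lie on the left among the demethylases at the bottom, led by KDM3A, KDM4B and KDM7A, while methyltransferases lie on both sides of 0.

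Of the 18 tested demethylase genes, 2 rose and 12 fell in KO2, and 1 rose and 13 fell in KO1. The shares over all genes tested were 38.1% rising and 26.6% falling in KO2, and 35.6% rising and 31.9% falling in KO1. They apply also to the smaller groups of erasers below. The 3 members grouped here as erasers of H3K27 methylation all fell in both lines. KDM6B (JMJD3), the inducible H3K27 demethylase of lymphoid and myeloid activation, had 8.331, 8.737 and 8.366 FPKM in KO2, 7.555, 7.883 and 6.937 in KO1, and 16.57, 17.99 and 18.52 in WT. Every edited library lay below every WT library, by a log2 change of -0.98 ± 0.06 in KO2 (limma adjusted p = 3.24e-07) and -1.14 ± 0.06 in KO1 (limma adjusted p = 7.27e-08). KDM6A (UTX), an X-linked H3K27 demethylase and a tumour suppressor in T-cell leukaemia, had 7.698, 7.892 and 7.485 FPKM in KO2, 5.744, 5.415 and 5.742 in KO1, and 11.39, 10.02 and 10.1 in WT. Its groups were fully separated, with KO2 between KO1 and WT, and it fell by 0.40 ± 0.06 in KO2 (limma adjusted p = 2.39e-04) and 0.79 ± 0.06 in KO1 (limma adjusted p = 1.23e-06). KDM7A, which removes dimethylation from H3K9 and H3K27, had 3.271, 2.949 and 3.122 FPKM in KO2, 2.197, 2.516 and 2.47 in KO1, and 8.068, 7.547 and 7.612 in WT. That is a log2 change of -1.09 ± 0.07 in KO2 (limma adjusted p = 3.12e-07) and -1.37 ± 0.07 in KO1 (limma adjusted p = 4.07e-08), again with no overlap. Summed over these 3 genes, the level was 19.28 ± 0.30 FPKM in KO2, 15.49 ± 0.33 in KO1 and 35.94 ± 0.35 in WT (SD, n = 3 each).

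The erasers of H3K9 and H3K36 methylation made up 9 tested genes, of which 2 rose and 6 fell in KO2, and 1 rose and 6 fell in KO1. KDM3A (JMJD1A), which removes mono- and dimethylation of H3K9 and is a known hypoxia target, had 20.03, 21.98 and 19.75 FPKM in KO2, 18.5, 18.13 and 21.01 in KO1, and 57.91, 53.38 and 51.54 in WT. The edited lines overlapped each other and both lay well below WT, by -1.36 ± 0.07 in KO2 (limma adjusted p = 5.86e-08) and -1.45 ± 0.07 in KO1 (limma adjusted p = 2.23e-08). KDM4B, an eraser of H3K9 trimethylation that is also known as a hypoxia target, had 8.321, 8.097 and 8.258 FPKM in KO2, 6.87, 6.845 and 6.449 in KO1, and 19.1, 20.5 and 21.05 in WT. It fell by 1.20 ± 0.05 in KO2 (limma adjusted p = 3.16e-08) and 1.46 ± 0.05 in KO1 (limma adjusted p = 5.18e-09), with all 3 groups apart. KDM4C, a paralog with the same substrates, had 10.98, 11.4 and 12.04 FPKM in KO2, 10.46, 9.789 and 11.25 in KO1, and 16.33, 15.66 and 15.01 in WT. Its fall was smaller, -0.42 ± 0.06 in KO2 (limma adjusted p = 1.68e-04) and -0.54 ± 0.06 in KO1 (limma adjusted p = 2.32e-05), and the edited lines overlapped each other but not WT.

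The other erasers of these marks moved less. KDM3B, a paralog of KDM3A, fell by 0.33 in KO2 and 0.30 in KO1, and KDM2B, an H3K36 demethylase that brings Polycomb repressive complex 1 to unmethylated CpG islands, fell by 0.29 ± 0.04 in KO2 (limma adjusted p = 1.20e-04) and 0.27 ± 0.04 in KO1 (limma adjusted p = 1.74e-04). KDM2B had 22.74, 22.51 and 21.79 FPKM in KO2, 22.62, 22.62 and 22.74 in KO1, and 26.99, 28.32 and 27.2 in WT. KDM4A fell by 0.21 ± 0.06 in KO2 (limma adjusted p = 0.0168) and 0.28 ± 0.06 in KO1 (limma adjusted p = 0.00263); the KO2 replicate 1 value of 20.15 FPKM lay above the lowest WT value of 19.99. The KO2 call for KDM4A was lost when WT replicate 2 or 3 or KO2 replicate 2 or 3 was left out, at -0.17 to -0.18 (limma adjusted p 0.0583 to 0.0649). KDM2A, the paralog of KDM2B, was the one demethylase that rose in both lines, by 0.15 ± 0.04 in KO2 and 0.18 ± 0.04 in KO1, at 26.69 ± 0.93 FPKM in KO2, 27.29 ± 0.75 in KO1 and 23.89 ± 0.12 in WT (SD, n = 3 each). KDM8 rose in KO2 (0.34 ± 0.12, limma adjusted p = 0.0319) at 2.93 ± 0.48 FPKM against 2.11 ± 0.48 in WT (SD, n = 3 each), a call lost without WT replicate 1 (0.21, limma adjusted p = 0.114), KO2 replicate 1 (0.34, limma adjusted p = 0.0684) or KO2 replicate 3 (0.25, limma adjusted p = 0.123). KDM4D, at 1.65 FPKM in KO2, 1.40 in KO1 and 1.66 in WT, passed in neither line, and KDM4E was listed at 0 throughout.

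Among the 6 erasers of H3K4 methylation, 0 rose and 3 fell in KO2, and 0 rose and 4 fell in KO1. KDM5B (JARID1B), which removes H3K4 trimethylation, had 16.53, 17.05 and 15.24 FPKM in KO2, 17.34, 17.08 and 18.51 in KO1, and 35.8, 32.49 and 33.02 in WT. The edited libraries were about alike and all below WT, by -1.01 ± 0.06 in KO2 (limma adjusted p = 1.59e-07) and -0.90 ± 0.06 in KO1 (limma adjusted p = 2.49e-07). KDM5C, the X-linked paralog, had 14.9, 15.2 and 15.51 FPKM in KO2, 11.78, 12 and 10.5 in KO1, and 19.75, 23.96 and 23.03 in WT. Its groups did not overlap, and it fell by 0.52 ± 0.07 in KO2 (limma adjusted p = 1.28e-04) and 0.90 ± 0.07 in KO1 (limma adjusted p = 1.61e-06). KDM5A, a paralog first known as a partner of the retinoblastoma protein, fell by 0.36 ± 0.04 in KO2 and 0.26 ± 0.04 in KO1 (limma adjusted p = 3.12e-05 and 2.61e-04). The call for KDM5D, the Y-linked paralog, was made in KO1 only (-0.18 ± 0.07, limma adjusted p = 0.0342), was lost without WT replicate 3 (-0.13, limma adjusted p = 0.132) or any KO1 library (-0.17 to -0.19, limma adjusted p 0.0525 to 0.0865), and in KO2 the value was -0.15 ± 0.07 (limma adjusted p = 0.0740).

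KDM1A (LSD1), the flavin-dependent eraser that works in corepressor complexes, was the most abundant member, at 141.3, 140.9 and 143.4 FPKM in KO2, 143.6, 146.3 and 156.9 in KO1, and 149.4, 136.5 and 135.7 in WT. Its mean over all libraries was 2.42-fold that of WHSC1, the next. The groups overlapped, with a difference from WT of 0.02 ± 0.05 in KO2 (limma adjusted p = 0.794) and 0.08 ± 0.05 in KO1 (limma adjusted p = 0.136). Without WT replicate 1 the KO1 difference passed, at 0.13 (limma adjusted p = 0.0202). KDM1B, its paralog, differed by 0.07 ± 0.07 in KO2 and 0.14 ± 0.07 in KO1 (limma adjusted p = 0.400 and 0.0857), and the KO1 difference passed without WT replicate 1 (0.19, limma adjusted p = 0.0406). The summed level of all demethylases, these 2 genes included, was 377.5 ± 0.2 FPKM in KO2, 376.5 ± 9.2 in KO1 and 484.9 ± 7.7 in WT. Without these 2 genes it was 217.3 ± 0.4 FPKM in KO2, 208.2 ± 2.0 in KO1 and 326.9 ± 1.7 in WT (SD, n = 3 each). KDM1A's share of all members' summed FPKM was 13.6% ± 0.1 in KO2, 14.3% ± 0.4 in KO1 and 12.2% ± 0.7 in WT (SD, n = 3 each).

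**Figure D2:**
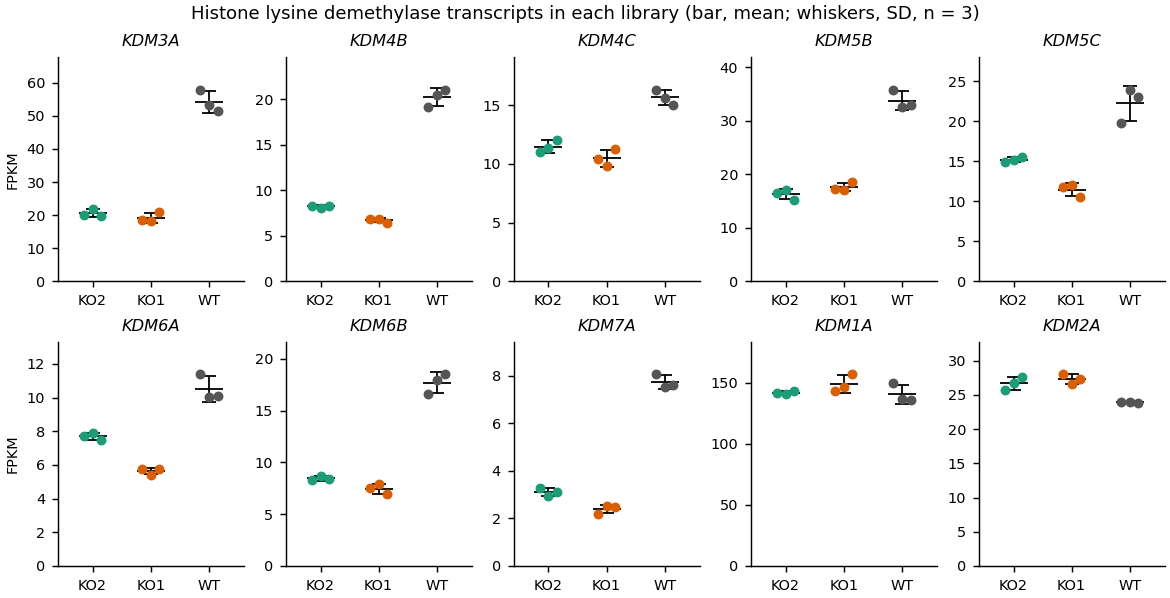
FPKM (y axis) of 10 demethylase genes in each library of KO2, KO1 and WT; bars are means and whiskers SD (n = 3). The edited libraries lie below all WT libraries for KDM3A, KDM4B, KDM4C, KDM5B, KDM5C, KDM6A, KDM6B and KDM7A, overlap WT for KDM1A, and lie above WT for KDM2A.

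Writers and PRDM genes together made up 36 tested members. In KO2, 13 rose and 10 fell, and in KO1, 13 rose and 14 fell, with median log2 changes of -0.02 in KO2 and -0.06 in KO1. Beside these counts, 38.1% of all genes tested rose and 26.6% fell in KO2, and 35.6% rose and 31.9% fell in KO1. The same shares apply to the role groups below. Of the 8 H3K4 methyltransferase genes, 2 rose and 3 fell in KO2, and 3 rose and 3 fell in KO1. KMT2E (MLL5), a reader of H3K4 trimethylation rather than an active writer, changed most: it had 25, 25.93 and 24.14 FPKM in KO2, 23.11, 22.23 and 24.44 in KO1, and 40.34, 38.09 and 38.17 in WT. All edited libraries lay below WT, by -0.62 ± 0.05 in KO2 (limma adjusted p = 1.70e-06) and -0.72 ± 0.05 in KO1 (limma adjusted p = 4.04e-07). SETD1A, a catalytic subunit of the complexes that place most H3K4 trimethylation, moved the other way, with 16.42, 16.05 and 17.34 FPKM in KO2, 16.39, 15.11 and 14.54 in KO1, and 9.964, 11.5 and 12.28 in WT. It rose by 0.53 ± 0.07 in KO2 (limma adjusted p = 1.18e-04) and 0.42 ± 0.07 in KO1 (limma adjusted p = 5.32e-04), without overlap.

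The remaining H3K4 writers split. KMT2A (MLL1), which leukaemia translocations rearrange, had 15.76, 16.73 and 18.23 FPKM in KO2, 20.22, 18.19 and 16.39 in KO1, and 19.96, 21.67 and 25.01 in WT. It fell by 0.37 ± 0.09 in KO2, where the groups did not overlap (limma adjusted p = 0.00509), and by 0.27 ± 0.09 in KO1, where they did (limma adjusted p = 0.0252). The KO1 call was lost without WT replicate 3 (-0.18, limma adjusted p = 0.103), KO1 replicate 2 (-0.27, limma adjusted p = 0.0585) or KO1 replicate 3 (-0.20, limma adjusted p = 0.0948). KMT2C, an enhancer H3K4 monomethyltransferase, fell by 0.37 in KO2 and 0.43 in KO1, whereas its paralog KMT2D, at 15.13 ± 1.02 FPKM in KO2, 13.50 ± 2.34 in KO1 and 13.53 ± 2.95 in WT, passed in neither (0.17 ± 0.14 in KO2 and 0.00 ± 0.14 in KO1). SETD7, which places H3K4 monomethylation and also methylates other proteins, had 18.1, 17.43 and 16.5 FPKM in KO2, 20.62, 22.78 and 23.93 in KO1, and 13.75, 14.24 and 14.32 in WT. Its groups were all apart, with KO2 again between the others: it rose by 0.28 ± 0.06 in KO2 (limma adjusted p = 0.00208) and 0.63 ± 0.06 in KO1 (limma adjusted p = 5.01e-06). KMT2B passed in neither line, but passed as lower in both when WT replicate 1 was left out (-0.21 in KO2 and -0.35 in KO1, limma adjusted p = 0.0422 and 0.00346). SETD1B rose in KO1 (0.21 ± 0.08, limma adjusted p = 0.0425), a call lost without WT replicate 1 or 3, KO1 replicate 1 or 2 or KO2 replicate 2 (0.14 to 0.22, limma adjusted p 0.0574 to 0.145); its KO2 value was 0.20 ± 0.08 (limma adjusted p = 0.0597), which passed without WT replicate 2 (0.25, limma adjusted p = 0.0314) or KO2 replicate 1 (0.25, limma adjusted p = 0.0377).

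Among 5 H3K9 methyltransferase genes, 1 rose and 1 fell in KO2, and 1 rose and 2 fell in KO1. The paralogs SUV39H1 and SUV39H2, which write the trimethylation of constitutive heterochromatin, moved in opposite directions. SUV39H1, on the X chromosome, had 11.48, 11.42 and 11 FPKM in KO2, 9.449, 10.34 and 8.695 in KO1, and 13.98, 16.12 and 16.37 in WT, a change of -0.42 ± 0.07 in KO2 (limma adjusted p = 5.49e-04) and -0.65 ± 0.07 in KO1 (limma adjusted p = 1.96e-05). SUV39H2 had 34.04, 32.56 and 30.51 FPKM in KO2, 32.1, 34.3 and 38.41 in KO1, and 25.18, 24.16 and 24.19 in WT, a change of 0.39 ± 0.07 in KO2 (limma adjusted p = 3.93e-04) and 0.49 ± 0.07 in KO1 (limma adjusted p = 6.18e-05). In both genes the edited libraries were separated from WT. EHMT1 (GLP), which writes H3K9 mono- and dimethylation with its partner EHMT2, had 11.03, 11.41 and 10.64 FPKM in KO2, 7.119, 6.637 and 6.545 in KO1, and 10.55, 11.38 and 11.81 in WT. KO2 overlapped WT (-0.03 ± 0.06, limma adjusted p = 0.732), while KO1 lay below all other libraries (-0.66 ± 0.06, limma adjusted p = 3.78e-06). SETDB1, which writes H3K9 trimethylation at retroelements, passed in neither line (0.03 ± 0.08 in KO2 and -0.18 ± 0.08 in KO1, limma adjusted p = 0.732 and 0.0573). In KO1 it passed without KO1 replicate 3, without WT replicate 1, or without replicate 2 or 3 of KO2 (-0.18 to -0.24, limma adjusted p 0.0163 to 0.0495).

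All 6 writers of H3K36 and H3K79 methylation passed in KO1, 2 rising and 4 falling, and 5 passed in KO2, 2 rising and 3 falling. Of all genes tested, 67.5% passed in KO1 and 64.7% in KO2. WHSC1 (NSD2), which writes H3K36 dimethylation and carries activating lesions in some lymphoid leukaemias, had 52.74, 53.76 and 52.56 FPKM in KO2, 51.44, 52.46 and 55.69 in KO1, and 70.47, 71.03 and 74.63 in WT. It fell by 0.43 ± 0.04 in KO2 and 0.43 ± 0.04 in KO1 (limma adjusted p = 6.36e-06 and 5.38e-06), and its paralog WHSC1L1 (NSD3) fell by 0.21 in KO2 and 0.23 in KO1. The third paralog, NSD1, rose: it had 20.81, 21.24 and 21.83 FPKM in KO2, 19.56, 19.48 and 19.46 in KO1, and 15.36, 16.62 and 16.81 in WT, a change of 0.37 ± 0.05 in KO2 and 0.25 ± 0.05 in KO1 (limma adjusted p = 5.71e-05 and 8.35e-04). SETD2, the sole major writer of H3K36 trimethylation, also rose, by 0.32 ± 0.05 in KO2 and 0.31 ± 0.05 in KO1 (limma adjusted p = 4.50e-04 and 5.35e-04), at 34.99 ± 1.77 FPKM in KO2, 34.67 ± 1.66 in KO1 and 27.87 ± 1.28 in WT (SD, n = 3 each). The H3K79 writer DOT1L, at 10.19 ± 0.04 FPKM in KO2, 9.17 ± 0.22 in KO1 and 12.09 ± 1.35 in WT, fell by 0.22 ± 0.07 in KO2 and 0.36 ± 0.07 in KO1 (limma adjusted p = 0.0202 and 0.00119). The KO2 call for DOT1L was lost without WT replicate 2, WT replicate 3 or KO2 replicate 3 (-0.16 to -0.22, limma adjusted p 0.0517 to 0.0820). ASH1L fell in KO1 (-0.27 ± 0.06, limma adjusted p = 0.00304) and had -0.12 ± 0.06 in KO2 (limma adjusted p = 0.121).

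Of the 3 H4K20 writers, 0 rose and 0 fell in KO2, and 0 rose and 1 fell in KO1. SETD8, which places H4K20 monomethylation and is tied to replication and mitosis, had 31.15 ± 0.53 FPKM in KO2, 30.86 ± 0.70 in KO1 and 32.49 ± 0.84 in WT (SD, n = 3 each), and passed in neither line (-0.06 ± 0.04 in KO2 and -0.07 ± 0.04 in KO1). SUV420H1, which extends that mark, passed in neither (-0.14 ± 0.06 in KO2, limma adjusted p = 0.0549, and -0.09 ± 0.06 in KO1); the KO2 value passed without WT replicate 2 (-0.18, limma adjusted p = 0.0277) or KO1 replicate 3 (-0.14, limma adjusted p = 0.0407). SUV420H2 had 4.984, 5.3 and 4.736 FPKM in KO2, 2.866, 3.745 and 3.458 in KO1, and 5.721, 6.051 and 5.031 in WT. KO2 overlapped WT (-0.13 ± 0.09, limma adjusted p = 0.222), and KO1 lay below both (-0.60 ± 0.09, limma adjusted p = 1.73e-04).

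Among the 4 other SETD genes tested, SETD5, a gene of intellectual disability, fell by 0.30 in KO2 and 0.31 in KO1, and SETD4 passed in neither line. SETD9 had 2.071, 3.214 and 3.852 FPKM in KO2, 3.042, 2.797 and 3.859 in KO1, and 2.173, 1.677 and 1.501 in WT. It rose by 0.52 ± 0.16 in KO2, where the groups overlapped (limma adjusted p = 0.0171), and by 0.60 ± 0.16 in KO1, where they did not (limma adjusted p = 0.00748). The KO2 call was lost without WT replicate 3 (0.45, limma adjusted p = 0.0607), KO2 replicate 2 (0.48, limma adjusted p = 0.0547) or KO2 replicate 3 (0.38, limma adjusted p = 0.0722). With no filter on low values, SETD9 passed in neither line (limma adjusted p = 0.104 in KO2 and 0.0584 in KO1). SETD3, the actin histidine methyltransferase, rose in KO2 by 0.11 ± 0.04 (limma adjusted p = 0.0356), which was lost without WT replicate 2 or 3, KO1 replicate 2, or KO2 replicate 2 or 3 (0.09 to 0.11, limma adjusted p 0.0515 to 0.124).

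In the SMYD family, which largely methylates proteins other than histones, 2 of 4 tested genes rose and 1 fell in KO2, and 3 rose and 1 fell in KO1. SMYD5 had 22.52, 24.86 and 22.25 FPKM in KO2, 22.69, 22.97 and 21.84 in KO1, and 13.45, 14.33 and 14.5 in WT. It rose by 0.68 ± 0.05 in KO2 and 0.64 ± 0.05 in KO1 (limma adjusted p = 1.71e-06 and 2.13e-06), with every edited library above WT. SMYD2, a methyltransferase of p53 and other proteins, had 38.08, 43.44 and 44.94 FPKM in KO2, 48.4, 53.09 and 51.07 in KO1, and 31.11, 31.73 and 28.46 in WT, a rise of 0.46 ± 0.07 in KO2 and 0.72 ± 0.07 in KO1 (limma adjusted p = 1.48e-04 and 3.93e-06). SMYD4 fell by 0.45 in KO2 and 0.38 in KO1. SMYD3, at 41.94 ± 2.14 FPKM in KO2, 46.51 ± 0.75 in KO1 and 42.19 ± 2.16 in WT, differed from WT by -0.01 ± 0.05 in KO2 and rose in KO1 (0.14 ± 0.05, limma adjusted p = 0.0297). The KO1 call was lost without WT replicate 2 (0.10, limma adjusted p = 0.122) or any 1 of the KO1 libraries (0.13 to 0.15, limma adjusted p 0.0543 to 0.0767). Summed over the family, the level was 114.5 ± 2.6 FPKM in KO2, 127.4 ± 2.4 in KO1 and 96.8 ± 1.1 in WT (SD, n = 3 each).

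PRDM genes carry a SET-related domain on zinc-finger transcription factors, and only some are active methyltransferases. Of 15 in the table, 6 were tested, of which 4 rose and 1 fell in KO2, and 3 rose and 2 fell in KO1. PRDM4 had 21.12 ± 1.18 FPKM in KO2, 20.24 ± 0.50 in KO1 and 15.61 ± 0.90 in WT, a rise of 0.41 in KO2 and 0.36 in KO1. PRDM2 (RIZ), an H3K9 methyltransferase, had 18.41 ± 0.72 FPKM in KO2, 21.05 ± 0.38 in KO1 and 15.97 ± 0.89 in WT, a rise of 0.19 in KO2 and 0.38 in KO1. PRDM10 fell by 0.31 in KO2 and 0.40 in KO1. PRDM15 rose in KO2 (0.30 ± 0.09, limma adjusted p = 0.0148) and had 0.21 ± 0.09 in KO1 (limma adjusted p = 0.0606), which passed without WT replicate 3 (0.27, limma adjusted p = 0.0381). PRDM13 and PRDM8 stood close to the filter, and both are among the calls counted for this family. PRDM13 had 1.39 FPKM in KO2, 1.60 in KO1 and 0.95 in WT, and passed the filter through the edited lines. PRDM8 had 1.02 in KO2, 0.70 in KO1 and 1.32 in WT. It passed the filter through WT and KO2, while its KO1 libraries had 0.4247 to 0.9214 FPKM. The PRDM13 rise of 0.30 in KO2 (limma adjusted p = 0.0213) was lost without WT replicate 1 or 3 or KO2 replicate 2 (0.25 to 0.28, limma adjusted p 0.0551 to 0.0764) and had a value of 0.09 under quantile normalization (limma adjusted p = 0.494). The 12 members that were not tested, among them SETD6, SMYD1, PRDM1, PRDM11, PRDM14 and KDM4E, reached at most 0.9114 FPKM in any library, and 2 of them were listed at 0 in all.

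**Figure D3:**
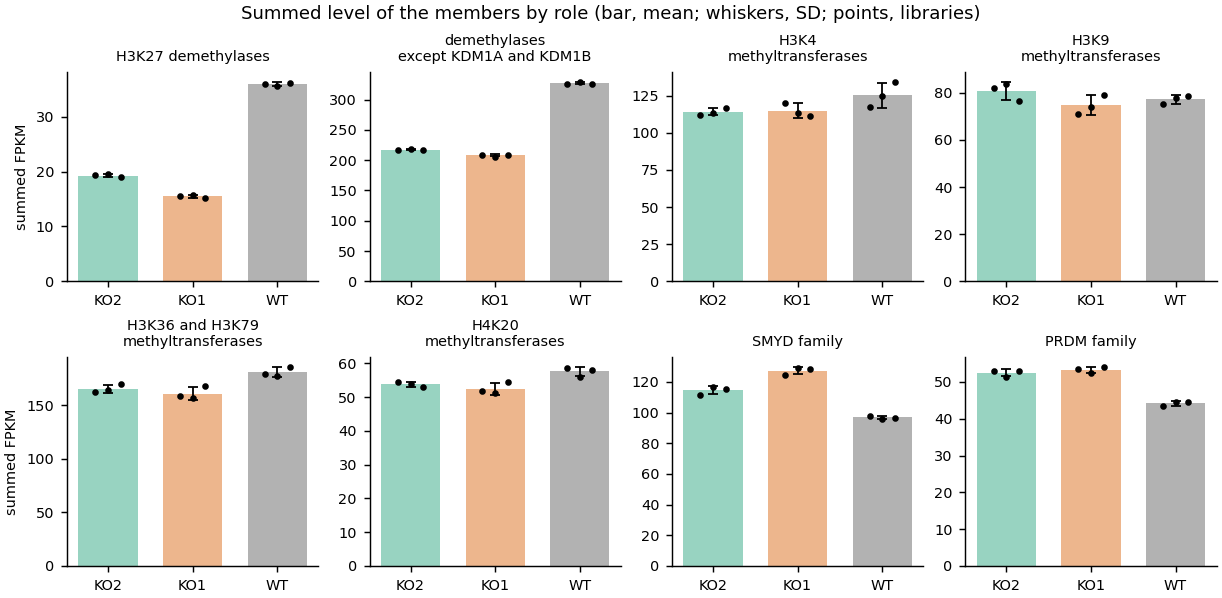
Summed FPKM (y axis) of the members of 8 role groups in KO2, KO1 and WT; bars are means, whiskers SD (n = 3) and points libraries. The H3K27 demethylases stand at 19.28 in KO2, 15.49 in KO1 and 35.94 in WT, and the demethylases other than KDM1A and KDM1B at 217.3 in KO2, 208.2 in KO1 and 326.9 in WT, whereas the H3K9 methyltransferases overlap between groups.

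The edited lines were then compared with each other. Of the 54 members, 8 were higher and 4 lower in KO2 than in KO1, while 18.3% of all genes tested were higher and 12.4% lower, 30.6% in either direction. The 8 higher in KO2 were EHMT1, SUV39H1, SUV420H2, SETD3, KDM5C, KDM4B, KDM6A and KDM7A, and the 4 lower were SETD7, SMYD2, SMYD3 and PRDM2. The share of higher calls over all genes, 59.7%, became 49.0% under quantile normalization and 47.9% with median centring. The count of lower members was 2 in place of 4 without replicate 2 or 3 of either edited line. Differences between the lines reached 0.63 ± 0.06 for EHMT1 (limma adjusted p = 3.57e-05), 0.47 ± 0.09 for SUV420H2 (0.00342), 0.39 ± 0.06 for KDM6A (0.00109), 0.39 ± 0.07 for KDM5C (0.00309), 0.28 ± 0.07 for KDM7A (0.0118) and 0.26 ± 0.05 for KDM4B (0.00541), and in the other direction -0.35 ± 0.06 for SETD7 (0.00153) and -0.27 ± 0.07 for SMYD2 (0.0120), all adjusted p from limma. The SMYD2 call was lost without KO1 replicate 2 (-0.24, limma adjusted p = 0.0502).

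Calls of smaller differences did not hold when 1 or another of several libraries was left out. SUV39H1 was higher in KO2 by 0.23 ± 0.07 (limma adjusted p = 0.0377), a call lost without KO1 replicate 1 or 3 or any KO2 library (0.18 to 0.25, limma adjusted p 0.0655 to 0.126) and under quantile normalization. SMYD3 was lower in KO2 by a log2 difference of -0.15 ± 0.05 (limma adjusted p = 0.0473), lost without WT replicate 3, any KO1 library, or KO2 replicate 2 or 3 (-0.12 to -0.16, limma adjusted p 0.0563 to 0.162). PRDM2 (-0.18 ± 0.05, limma adjusted p = 0.0219) lost its call without KO1 replicate 3, KO2 replicate 2 or KO2 replicate 3 (-0.16 to -0.18, limma adjusted p 0.0609 to 0.0862), and SETD3 (0.15 ± 0.04, limma adjusted p = 0.0152) without KO2 replicate 2 or 3 (0.14 and 0.13, limma adjusted p = 0.0552 and 0.0617). KDM3A, KDM5B and WHSC1 did not pass between the lines (0.10 ± 0.07, -0.11 ± 0.06 and 0.00 ± 0.04). KDM6B had 0.17 ± 0.06 (limma adjusted p = 0.0696), SETDB1 0.21 ± 0.08 (limma adjusted p = 0.0589) and NSD1 0.12 ± 0.05 (limma adjusted p = 0.0797). KDM6B and NSD1 passed without WT replicate 1 (limma adjusted p = 0.0492 and 0.0428), and SETDB1 passed without KO1 replicate 3 or KO2 replicate 3 (0.27 and 0.26, limma adjusted p = 0.0244 and 0.0375).

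Several members that differed between the lines lie among genes that differed alike. The median log2 difference between KO2 and KO1 over the 15 placed tested neighbours of EHMT1, at the end of chromosome 9, was 0.505, and those neighbours had a median of 0.187 in KO2 against WT and -0.351 in KO1 against WT. Over 30 neighbours each, the KO2 against KO1 medians were 0.397 around SUV39H1, 0.269 around KDM6A and 0.264 around KDM5C, and 0.262 over the 380 placed non-member genes of the X chromosome. Against WT these X-chromosome genes had a median of -0.134 in KO2 and -0.387 in KO1. KDM6A and KDM5C were further below WT than their neighbours, whose medians around KDM6A were -0.169 in KO2 and -0.525 in KO1. Around SUV39H1 the neighbour medians were -0.065 in KO2 and -0.507 in KO1, beside its own -0.420 in KO2 and -0.652 in KO1. The neighbours of KDM3A (median -0.067 in KO2 and -0.034 in KO1), KDM4B (0.153 in KO2 and -0.016 in KO1), KDM6B (-0.023 in KO2 and 0.001 in KO1) and KDM7A (0.131 in KO2 and -0.004 in KO1) stood near 0 or on the other side of it from those genes. Between the lines, the neighbours of KDM7A, SUV420H2 and KDM4B had medians of 0.176, 0.159 and 0.129, beside own differences of 0.278, 0.468 and 0.257. The median difference between the lines over all genes tested was 0.04. The order of genes was taken from RefSeq on GRCh38.p14. DNA copy number was not measured here, and its part in these values was not tested.

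**Figure D4:**
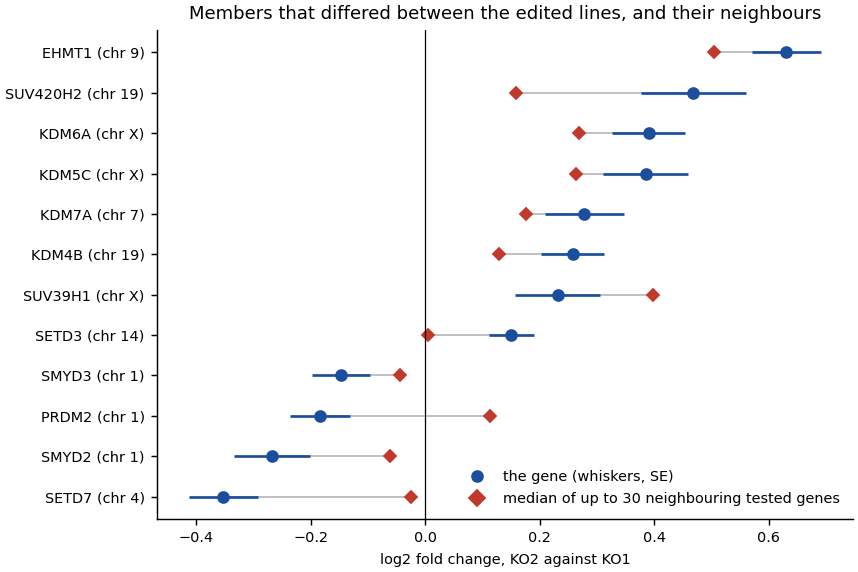
Log2 difference of KO2 against KO1 (x axis) for the 12 members that passed between the lines (circles, whiskers SE), with the median of up to 30 neighbouring tested genes (diamonds). EHMT1, KDM6A, KDM5C and SUV39H1 lie with neighbours at 0.505, 0.269, 0.264 and 0.397. The neighbours of KDM7A, SUV420H2 and KDM4B lie at 0.176, 0.159 and 0.129. Those of SETD7, SETD3, SMYD3 and SMYD2 lie at -0.025, 0.005, -0.045 and -0.062, and those of PRDM2 at 0.113.

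Partner proteins of these enzymes, from lists chosen with earlier results of these data known, moved in both directions. Of all genes tested, 38.1% rose and 26.6% fell in KO2, and 35.6% rose and 31.9% fell in KO1. Among 12 tested members of the KDM1A corepressor complexes, 2 rose and 8 fell in KO2, and 3 rose and 8 fell in KO1, although KDM1A itself did not pass. GFI1, a repressor that recruits KDM1A, had 11.4, 12.53 and 12.11 FPKM in KO2, 10.09, 9.496 and 9.713 in KO1, and 18.57, 21.97 and 20.75 in WT, a fall of 0.72 ± 0.07 in KO2 and 0.99 ± 0.07 in KO1 (limma adjusted p = 4.73e-06 and 3.14e-07). HMG20B fell by 0.51 in KO2 and 0.57 in KO1, and the X-linked ZMYM3 by 0.48 in KO2 and 0.89 in KO1. Of 12 tested partners of the H3K4 writers, 5 rose and 2 fell in KO2, and 3 rose and 2 fell in KO1. Their shared subunit WDR5, on chromosome 9, rose in KO2 (0.41 ± 0.05, limma adjusted p = 2.97e-05) and did not pass in KO1 (0.04 ± 0.05), and its neighbours had medians of 0.243 in KO2 and -0.234 in KO1. Of 8 partners and readers of H3K9 methylation, 5 rose and 1 fell in KO2, and 6 rose and 1 fell in KO1, with WIZ, a zinc-finger partner of the EHMT enzymes, up by 0.58 ± 0.08 in KO2 and 0.35 ± 0.08 in KO1. Among 8 partners of DOT1L and of elongation, 2 rose and 2 fell in KO2, and 1 rose and 2 fell in KO1; MLLT3 (AF9) had 6.63 ± 0.31 FPKM in KO2, 5.52 ± 0.50 in KO1 and 10.65 ± 0.49 in WT (SD, n = 3 each), a fall of 0.61 in KO2 and 0.84 in KO1.

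Libraries of a group varied little for most of these genes. The median coefficient of variation over the 54 members was 4.21% in KO2, 5.20% in KO1 and 5.73% in WT. The highest was 29.6% in KO2 (SETD9), 36.1% in KO1 (PRDM8) and 22.9% in WT (KDM8). WT replicate 1 was the lowest of the 3 WT libraries for 28 members. Of the 54 members, all KO2 libraries lay above all WT libraries for 14 and below them for 24, and all KO1 libraries lay above all WT libraries for 16 and below them for 27. Over all genes tested, 40.3% lay above and 28.8% below WT in this way in KO2, and 36.2% above and 32.4% below in KO1.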

How the data were processed

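Poly(A)-selected RNA of 9 Jurkat libraries was sequenced, with 3 libraries each of KO2, KO1 and WT; titles of the samples gave groups and replicate numbers. The authors deposited FPKM values, made from aligned reads scaled by transcript length and library size, in 1 table with a column per library; the header gives no unit, and FPKM was read from the values and the tools named. The submitters' processing notes name the build hg19 with Cufflinks 2.2.1, STAR 2.5.0b and bedtools 2.7.0, giving no roles. Annotation, use of strand and depth in reads: not given in the sources used here. Reads of antisense or overlapping genes (KDM4A-AS1, ASH1L-AS1 and KMT2E-AS1 beside their partners) and of the near copies PRDM7 and PRDM9 may be shared, which leaves those levels uncertain. The submitters call the libraries biological triplicates, and nothing says that those of a group came from separate derivations of a line, so p-values measure the spread between these cultures.

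Of 26228 rows, 38 hold text instead of numbers and were dropped, none of them a member. A gene was tested if at least 3 of the 9 libraries reached 1 FPKM (11737 genes). The model, in limma 3.58.1 under R 4.3.3, took log2(FPKM + 1) with a mean for each group, all libraries together, moderated variances that follow the mean level, and no covariate. Contrasts were KO2 against WT, KO1 against WT and KO2 against KO1, with Benjamini-Hochberg adjusted p under 0.05 as the threshold. The fit was tested on simulated data. The members, role groups and partner lists were chosen with earlier results of these data known. Named genes were those passing in both lines by at least 0.5 in 1 direction, those passing between the lines by 0.5, the 3 highest in level and a set of prior interest; values of other members were added after they had been seen. Replicate numbers did not pair the libraries: correlations of deviations between same-numbered libraries ran from -0.287 to 0.318. Neighbours are the 15 tested genes on each side in RefSeq order on GRCh38.p14, where 98.5% of tested genes were placed; 58 of 66 members had a promoter window. Alternatives were other filters, pseudocounts, scalings, moderation, thresholds, a replicate block, fits of only the groups compared, and leaving out each library. Values of 1 listed B-cell marker and 1 member under the filter are not reported here.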

Additional observations from a re-analysis of the deposited data

Results flagged for a closer look

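The difference from WT was unequal in the 2 edited lines for 12 members, by the direct comparison of KO2 with KO1 (limma, Benjamini-Hochberg adjusted over all genes), among 54 tested. In the same comparison, 30.6% of all genes tested passed, 18.3% higher and 12.4% lower in KO2. Log2 differences, KO2 minus KO1, were 0.63 for EHMT1, 0.47 for SUV420H2, 0.39 for KDM6A, 0.39 for KDM5C, 0.28 for KDM7A, 0.26 for KDM4B, 0.23 for SUV39H1 and 0.15 for SETD3. They were -0.35 for SETD7, -0.27 for SMYD2, -0.18 for PRDM2 and -0.15 for SMYD3. EHMT1 and SUV420H2 passed against WT in KO1 and not in KO2, at -0.66 and -0.60 in KO1. For KDM6A, KDM5C, KDM7A, KDM4B and SUV39H1, both lines were below WT and KO1 was lower. For SETD7, SMYD2 and PRDM2, both lines were above WT and KO1 was higher. Neighbouring genes had median differences of 0.505 at EHMT1, 0.269 at KDM6A, 0.264 at KDM5C and 0.397 at SUV39H1. Around KDM7A, SUV420H2 and KDM4B the medians were 0.176, 0.159 and 0.129, against 0.04 over all genes tested. Around SETD3, SETD7, SMYD2, SMYD3 and PRDM2 they were 0.005, -0.025, -0.062, -0.045 and 0.113. The part of the neighbours in these differences was not tested.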

How the results depend on the processing

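Of 162 pairs of a tested member and a comparison, 90 passed, and 71 of these passed under every one of the 19 alternative fits that included the gene; 19 lost the call under at least 1, 18 of 72 others gained it, and 0 reversed. The cause was not tested. The calls of KDM3A, KDM4B, KDM5B, KDM5C, KDM6A, KDM6B, KDM7A and KMT2E against WT were among those that passed in every fit. With at least 0.5 on the log2 scale required as well, 3 members rose and 7 fell in KO2 (6 of them demethylases), 4 rose and 12 fell in KO1 (8 of them demethylases), and 1 was higher and 0 lower in KO2 than in KO1. By the same rule, 15.4% of all genes tested rose and 9.38% fell in KO2, 15.3% rose and 12.6% fell in KO1, and 2.91% were higher and 3.73% lower in KO2 than in KO1. Without the PRDM and SMYD families, 9 rose in KO2, 8 rose in KO1 and 1 was lower in KO2 than in KO1, from fewer genes counted. At an adjusted p under 0.01, 5 were higher and 1 lower in KO2 than in KO1. Leaving out each library gave 12 to 15 rising and 20 to 23 falling members in KO2, 12 to 15 and 25 to 29 in KO1, and 6 to 10 higher and 2 to 4 lower in KO2 than in KO1; falling demethylases numbered 11 to 12 in KO2 and 12 to 13 in KO1. With a replicate block, 14 rose and 22 fell in KO2, 13 rose and 27 fell in KO1, and 7 were higher and 3 lower in KO2 than in KO1. Dropping the filter on low values ended the KO2 calls of DOT1L, WHSC1L1, KDM4A, KDM8, SETD9, PRDM13 and PRDM15. The KO1 calls of KMT2A, SETD1B, SETD9 and SMYD3 ended too, as did those of SUV39H1, SMYD2 and SMYD3 between the lines. Under that setting KDM5A passed as lower in KO2 than in KO1. Quantile normalization ended the KO2 calls of KDM8, SETD3, SETD9, PRDM13 and PRDM15, the KO1 calls of SETD1B and PRDM13, and that of SUV39H1 between the lines. It gained the falls of SETDB2, ASH1L, SUV420H1, PRDM8 and KDM5D in KO2 and of KMT2B and KDM4D in KO1, and KDM5A as lower in KO2 than in KO1. The counts were then 10 rising and 27 falling in KO2, 12 rising and 29 falling in KO1, and 7 higher and 5 lower in KO2 than in KO1; the setting moved the median of all genes by less than 0.1. The depth in reads is unknown, so genes near 1 FPKM carry a counting error that cannot be given.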

Other observations

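A list of further methylation genes outside the naming rule had 11 tested, of which 7 rose and 3 fell in KO2, and 7 rose and 3 fell in KO1. For this list and those below, the shares over all genes tested were 38.1% rising and 26.6% falling in KO2. In KO1 they were 35.6% rising and 31.9% falling. The rising genes include METTL4, an adenine methyltransferase and no lysine enzyme (0.20 in KO2 and 0.28 in KO1), and MECOM, which passed the filter on low values only through the edited lines. MECOM (EVI1, PRDM3), a leukaemia oncogene related to PRDM16, had 3.002, 3.192 and 3.238 FPKM in KO2, 5.695, 5.243 and 6.088 in KO1, and at most 0.05 in WT. SETMAR, a SET-domain protein fused to a transposase, had 21.54 ± 2.67 FPKM in KO2, 24.75 ± 0.62 in KO1 and 8.64 ± 0.37 in WT (SD, n = 3 each). MINA, a Jumonji-family oxygenase, had 25.14 ± 0.60 FPKM in KO2, 24.26 ± 0.34 in KO1 and 10.78 ± 0.47 in WT (SD, n = 3 each), and rose by 1.15 in KO2 and 1.10 in KO1. The other Jumonji-family genes on this list moved both ways. C14orf169 rose by 0.57 in KO2 and 0.68 in KO1, and PHF2 by 0.26 in KO2 and 0.36 in KO1. The X-linked PHF8 fell by 0.39 in KO2 and 0.65 in KO1, and JMJD1C by 0.325 in KO2 and 0.27 in KO1. EZH1, the paralog of EZH2, fell by 0.55 ± 0.07 in KO2 and 0.64 ± 0.07 in KO1 (limma adjusted p = 4.58e-05 and 1.17e-05), at 7.72 ± 0.40 FPKM in KO2, 7.16 ± 0.15 in KO1 and 11.76 ± 1.01 in WT (SD, n = 3 each).

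The arginine methyltransferases and the PRC2 partners each moved in 1 direction where they passed. Of 7 tested arginine methyltransferases, 5 rose in KO2 and 4 in KO1, and 0 fell. PRMT3, which methylates a ribosomal protein, had 24.67, 24.34 and 25.68 FPKM in KO2, 23.57, 25.48 and 23.79 in KO1, and 12.58, 10.3 and 10.63 in WT, a rise of 1.09 ± 0.07 in KO2 and 1.06 ± 0.07 in KO1 (limma adjusted p = 3.04e-07 and 2.76e-07). PRMT6 rose by 0.91 in KO2 and 0.88 in KO1, and PRMT5 by 0.55 in KO2 and 0.38 in KO1. Of 9 PRC2 partners, 0 rose and 6 fell in each line. PHF1, an accessory subunit, fell by 0.73 ± 0.07 in KO2 and 0.78 ± 0.07 in KO1 (limma adjusted p = 6.90e-06 and 3.05e-06). PHF19, its paralog on chromosome 9, fell by 0.57 ± 0.06 in KO2 and 1.16 ± 0.06 in KO1, beside neighbour medians of 0.019 in KO2 and -0.347 in KO1.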
